A study of Mus musculus with 6 samples.

Results

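The genes described here encode the enzymes and transporters of glycolysis and the hypoxia response driven by hypoxia-inducible factor 1 (HIF-1). They were listed by symbol, 43 in all, and fall into HIF subunits and oxygen sensors (7 genes), glycolytic enzymes and transporters (22 genes) and other HIF targets (14 genes). A gene was used where the platform annotation gave a probe set to its symbol alone, and the probe set with the highest mean over the 6 arrays stood for the gene. In this way 38 of the 43 genes were measured, out of 22180 genes tested in all: 7 of 7 HIF subunits and oxygen sensors, 19 of 22 glycolytic genes and 12 of 14 other HIF targets. Gpi1 and Eno1 matched no such probe set, and the probe sets of Aldoa, Bnip3l and Ankrd37 were shared with Aldoart1, Bnip3l-ps and Lrp2bp, so these 5 genes have no value. Ero1l was measured under its current symbol, Ero1a. No filter on low levels was applied, and all 38 probe sets had a mean at or above the median of the array, 5.48 on the log2 scale.

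The study measured RNA of CD4+ T cells that were taken from mouse spleen with magnetic beads, grown in RPMI medium with 10% fetal bovine serum and stimulated for 12 hours. PlGFCM cells received conditioned medium from clones of HEK-293 (a line from human embryonic kidney) that overexpress PlGF2, a form of placental growth factor (PlGF). IL6_ConCM cells received control conditioned medium with interleukin 6 (IL-6) at 20 ng/ml, and ConCM cells received control conditioned medium alone. In all 3 groups the cells were stimulated with 1 µg/ml of anti-CD3 and anti-CD28 antibody, and each held 2 arrays. The sources used here do not give the mouse strain, sex and age, the number of animals, the PlGF concentration or the oxygen level of the cultures. The labels call the replicates separate samples without naming animals or cultures, so the p-values below refer to these samples alone. The spread behind each p-value and SE was estimated in part from other genes of similar level.

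HIF-1 pairs the oxygen-regulated alpha subunit Hif1a with the stable partner Arnt, and HIF-2 pairs Epas1 (HIF-2 alpha) with the same partner. In the presence of oxygen, the prolyl hydroxylases Egln1, Egln2 and Egln3 mark the alpha subunit for destruction through Vhl, and Hif1an hydroxylates it at an asparagine and blocks its coactivators, so that much of the control acts on protein, which arrays do not measure. T cells stimulated through CD3 and CD28 are known to raise glucose uptake and lactate output even with oxygen present, and HIF-1 is known to be induced by T cell receptor signals and to favour Th17 cells, which IL-6 promotes.

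The array median of the log2 level ran from 5.47 to 5.51, and Pearson's r over all genes was 0.994 to 0.995 for arrays of the same group and 0.993 to 0.995 for arrays of different groups. One array stood apart in sex-linked transcripts: Xist, an RNA of the inactive X chromosome, was at 8.38 on PlGFCM replicate 2, against 3.58 to 3.95 on the other 5 arrays. Transcripts of the Y chromosome were lowest there without being lost: Uty was at 7.50, Kdm5d at 7.07 and Eif2s3y at 8.59, against at least 7.77, 7.42 and 8.90 elsewhere, so the array carried signals of both kinds. The role medians and the counts above 0 over all 38 genes are given without this array as well. So are the printed differences of PlGFCM from ConCM with an unadjusted p under 0.05. Counts above 0 by role or by list are given with all arrays only. The 6 measured CD4 T cell markers (Cd3d, Cd3e, Cd3g, Cd4, Cd28 and Cd5) had mean log2 levels of 10.56 to 10.76 per array. Lists of other cell types lay at 5.51 to 5.78 (CD8 T and NK cells, 5 of 5 measured), 6.68 to 6.74 (B cells, 4 of 5), 5.68 to 6.02 (myeloid cells, 6 of 6) and 5.51 to 5.73 (dendritic cells, 4 of 4), and Slc4a1, the only erythroid marker of 6 with a value, at 4.96 to 5.37. In such bulk samples, fewer cells that carry a transcript and less of it per cell cannot be told apart.

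HIF-1 binds DNA at a core of the letters ACGTG or GCGTG within its response element. Promoters of 4 targets are shown because P4ha1 had the smallest p of all 38 genes, and Pdk1, Bnip3 and Ddit4 are among the targets whose 2 replicates differed together, as described further on. The sequences are from RefSeq (mouse build GRCm38.p6) and run 5′ to 3′ on the strand of the gene, from 250 bases before its start to 50 bases after it. Capitals mark ACGTG and GCGTG on either strand (on the other strand they read CACGT and CACGC). The P4ha1 window is chr10:59323046-59323345 (plus strand, 3 cores), that of Pdk1 chr2:71872974-71873273 (plus strand, 2 cores), that of Bnip3 chr7:138909457-138909756 (minus strand, 4 cores, with CACGTG counted once) and that of Ddit4 chr10:59951721-59952020 (minus strand, 2 cores).
P4ha1: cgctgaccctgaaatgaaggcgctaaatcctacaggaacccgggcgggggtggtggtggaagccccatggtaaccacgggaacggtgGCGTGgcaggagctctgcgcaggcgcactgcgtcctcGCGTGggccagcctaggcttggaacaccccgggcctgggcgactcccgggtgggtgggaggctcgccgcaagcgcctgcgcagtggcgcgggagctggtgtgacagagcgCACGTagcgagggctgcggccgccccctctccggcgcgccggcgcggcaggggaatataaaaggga
Pdk1: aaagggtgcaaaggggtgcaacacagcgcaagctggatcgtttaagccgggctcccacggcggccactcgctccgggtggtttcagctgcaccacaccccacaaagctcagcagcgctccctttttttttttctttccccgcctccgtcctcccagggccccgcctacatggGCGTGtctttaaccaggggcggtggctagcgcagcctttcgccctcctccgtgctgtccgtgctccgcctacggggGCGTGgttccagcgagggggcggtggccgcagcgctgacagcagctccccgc
Bnip3: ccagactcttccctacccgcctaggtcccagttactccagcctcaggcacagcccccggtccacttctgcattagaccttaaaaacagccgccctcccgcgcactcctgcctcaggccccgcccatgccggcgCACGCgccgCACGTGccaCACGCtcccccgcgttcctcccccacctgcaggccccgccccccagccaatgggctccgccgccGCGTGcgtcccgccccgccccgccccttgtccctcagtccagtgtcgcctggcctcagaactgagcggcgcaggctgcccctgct
Ddit4: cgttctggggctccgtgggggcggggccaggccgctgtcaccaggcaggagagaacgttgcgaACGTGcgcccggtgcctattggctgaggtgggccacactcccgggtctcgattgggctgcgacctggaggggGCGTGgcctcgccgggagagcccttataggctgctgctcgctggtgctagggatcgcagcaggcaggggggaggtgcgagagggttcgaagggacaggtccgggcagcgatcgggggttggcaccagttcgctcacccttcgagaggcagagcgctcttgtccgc
A window was listed for 35 of the 38 genes (Epas1, Slc2a3 and Ndrg1 had none), and 29 of these (82.9%) held at least 1 core. Over all 27025 genes with a window, tested here or not, the share was 43.8%, or 11836 genes. These genes were not matched to the 38 for level or base content. Some of the 38 were listed because they are HIF targets, so the 2 shares are not a like comparison. Vhl, Hif1an, Hk1, Tpi1, Pkm and Mxi1 held none in these 300 bases. Where several windows were listed for a gene, only the first was used in these counts. Further windows, at other starts of the gene, held 5 cores for Hk1, 2 for Pkm and 1 each for Mxi1. The cores are matches of letters only, and nothing follows from them about binding of the factor.

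The comparison of PlGFCM with ConCM asked how medium with PlGF acts on stimulated CD4+ T cells. Among the HIF and glycolysis genes, those with an unadjusted p under 0.05 were P4ha1, Slc2a1, Hif1a, Slc16a3 and Egln3, higher on both PlGFCM arrays than on both ConCM arrays, and Slc16a1, lower on both. None of the 38 genes passed the test (limma, adjusted p under 0.05 over all 22180 genes), where 0.433% of all genes did. At the unadjusted p there were thus 5 higher and 1 lower of 38, against 4.19% of all genes higher and 4.54% lower (8.74% together). The groups did not overlap for 9 of the 38 genes (23.7%), 6 higher and 3 lower in PlGFCM, which is below the 38.2% of all genes (17.3% higher and 20.9% lower). The log2 difference was above 0 for 28 of 38 genes (73.7%), against 46.4% of all genes, with a median of 0.04 against -0.01 over all genes. This count rests on single arrays: it was 14 of 38 (36.8%) without PlGFCM replicate 1 and 31 of 38 (81.6%) without PlGFCM replicate 2, a check added after the values were seen.

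Of the HIF subunits and oxygen sensors, Hif1a had log2 levels of 11.49 and 11.56 in PlGFCM, against 11.43 and 11.20 in ConCM. Both PlGFCM arrays lay above both ConCM arrays, the nearest pair being close, and the difference was 0.21 ± 0.08 (SE, n = 2 each; adjusted p = 0.447). The other Hif1a probe set differed by 0.20. Egln3, the prolyl hydroxylase that is itself a HIF target, was at 11.60 and 11.71 in PlGFCM, against 11.57 and 11.44 in ConCM, a difference of 0.15 ± 0.06 (adjusted p = 0.541). The groups again did not overlap. Without ConCM replicate 2 the differences were 0.09 for Hif1a and 0.08 for Egln3. Egln1, the main oxygen sensor, was at 10.18 and 10.02 in PlGFCM, against 9.92 and 10.10 in ConCM, and Epas1 at 6.70 and 6.43, against 6.39 and 6.47; both overlapped between the groups, with differences of 0.09 and 0.14. The difference was above 0 for 7 of the 7 genes, against 46.4% of all genes, with a median of 0.09. Without PlGFCM replicate 1 the median was 0.0095, and Vhl (-0.10), Egln2 (-0.08) and Epas1 (-0.0018) were below 0. Without PlGFCM replicate 2 the median was 0.12 and the differences of Hif1a and Egln3 were 0.17 and 0.09.

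Of the glycolytic enzymes and transporters, Slc2a1, which encodes the glucose transporter GLUT1, had log2 levels of 11.49 and 11.39 in PlGFCM, against 11.22 and 11.30 in ConCM. Both PlGFCM arrays lay above both ConCM arrays, and the difference was 0.18 ± 0.06 (SE, n = 2 each; 95% interval 0.05 to 0.32; adjusted p = 0.376), while the other probe set of the gene differed by 0.04. The lactate transporters of the plasma membrane ran in opposite directions. Slc16a3, which encodes the HIF-induced lactate exporter MCT4, was at 9.52 and 9.24 in PlGFCM, against 9.14 and 9.15 in ConCM, a difference of 0.23 ± 0.10 (adjusted p = 0.511). It was 0.10 without PlGFCM replicate 1 and 0.37 without PlGFCM replicate 2. Slc16a1, which encodes MCT1, was at 9.22 and 9.22 in PlGFCM, against 9.54 and 9.36 in ConCM, a difference of -0.23 ± 0.09 (adjusted p = 0.455). Neither pair of groups overlapped, and neither difference passed the test. Without ConCM replicate 1 the difference of Slc16a1 was -0.14, and without PlGFCM replicate 2 that of Slc2a1 was 0.23 and that of Slc16a1 -0.23.

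The measured glycolytic enzymes had fitted differences from -0.09 (Pfkp) to 0.14 (Pfkfb3, 95% interval -0.10 to 0.37). None of these enzymes had an unadjusted limma p under 0.05. Hk2, the inducible hexokinase, was at 9.57 and 9.42 in PlGFCM, against 9.51 and 9.35 in ConCM, and Pgk1, which makes the first ATP of the pathway, at 12.26 and 12.26, against 12.35 and 12.35. Hk2 overlapped between the groups. Pgk1 and Gapdh were lower in PlGFCM without overlap, with differences of -0.09 and -0.03, and neither passed the test. Ldha, which reduces pyruvate to lactate, was at 8.98 and 8.32 in PlGFCM, against 8.50 and 8.72 in ConCM, so that one PlGFCM array was the highest and the other the lowest of these 4. Its difference was 0.04 with a 95% interval of -0.37 to 0.45, which leaves a wide range of values possible. The intervals of Gapdh (-0.12 to 0.07) and Pkm (-0.09 to 0.10) were much narrower. Over the 19 genes the median difference was 0.0050, 11 being above 0 and 8 below. The median was -0.04 without PlGFCM replicate 1 and 0.06 without PlGFCM replicate 2, so its sign rests on single arrays. Related transcripts and processed pseudogenes can bind to probe sets of Gapdh, Pgk1, Ldha, Pgam1, Tpi1 and Pkm, so the assignment of these signals to 1 gene is uncertain.

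Of the other HIF targets, P4ha1, a subunit of the prolyl hydroxylase that modifies collagen, was at 10.43 and 10.33 in PlGFCM, against 10.05 and 10.05 in ConCM. The groups lay well apart, and the difference was 0.33 ± 0.07 (SE, n = 2 each; 95% interval 0.18 to 0.48), or 1.26-fold. Its limma p was 0.000457 before adjustment and 0.0761 after it, which misses the threshold; over 14 alternatives the adjusted p ran from 0.0411 to 0.537, and it passed in 1 of them, where genes below the median level were left out before testing. Without PlGFCM replicate 2 the difference was 0.38. Bnip3, a mitophagy receptor, was at 9.32 and 8.79 in PlGFCM, against 8.71 and 8.94 in ConCM. These groups overlapped, and the difference of 0.23 ± 0.15 (adjusted p = 0.735) was -0.03 without PlGFCM replicate 1 and 0.50 without PlGFCM replicate 2. Ero1a, an oxidase of protein folding, was at 11.09 and 10.94 in PlGFCM, against 10.86 and 10.96 in ConCM, and Kdm3a, a histone demethylase, at 9.46 and 9.32, against 9.22 and 9.32. Pdk1, the kinase that holds pyruvate back from the mitochondria, was at 9.52 and 9.16 in PlGFCM, against 9.33 and 9.54 in ConCM. All 3 overlapped between the groups. The median of the 12 genes was 0.11, with 10 above 0, and it was -0.02 without PlGFCM replicate 1 and 0.23 without PlGFCM replicate 2.

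**Figure D1:**
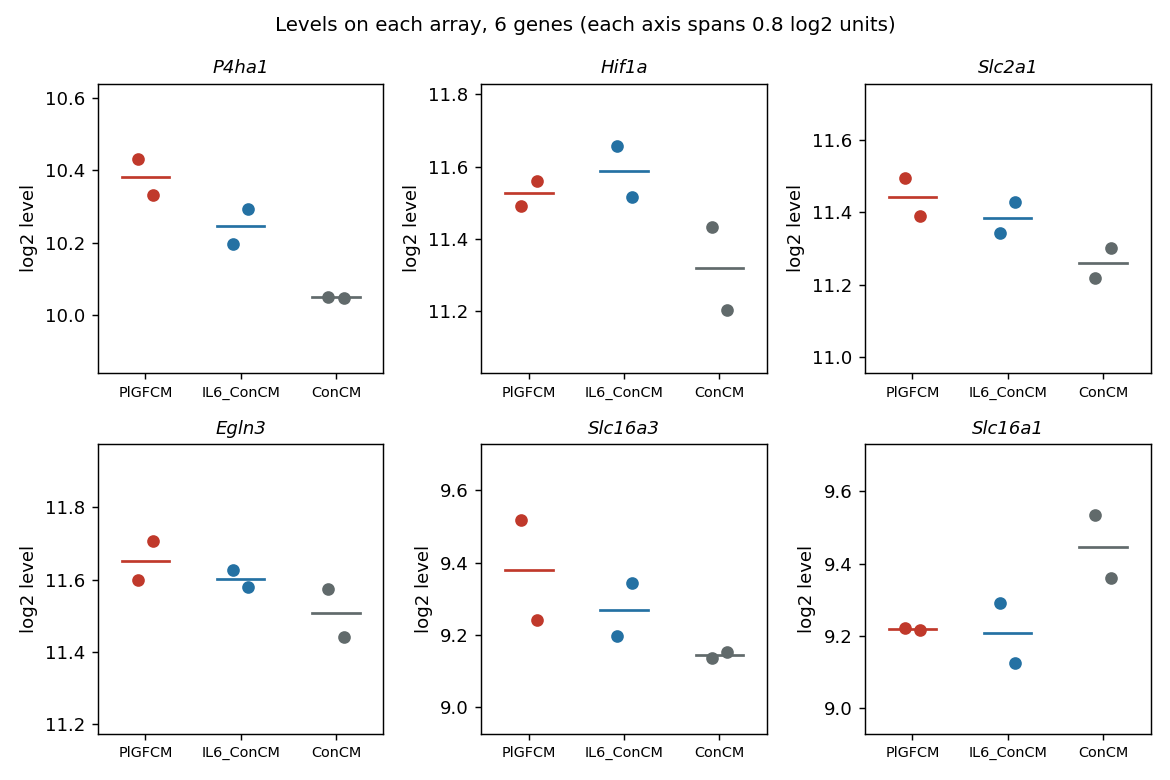
Log2 level of P4ha1, Hif1a, Slc2a1, Egln3, Slc16a3 and Slc16a1 on each array, by group; points are the arrays, 2 per group, lines are group means, and levels of different genes cannot be set against each other. P4ha1 is highest in PlGFCM (10.43 and 10.33) and lowest in ConCM (10.05 and 10.05), and Slc16a1 is higher in ConCM (9.54 and 9.36) than on the other 4 arrays.

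The comparison of IL6_ConCM with ConCM asked the same of IL-6, and it shares the ConCM arrays with the comparison above, so the values stand side by side and are not independent. None of the 38 genes passed the test, where 0.113% of all genes did, and at an unadjusted p under 0.05 there were 2 higher (Hif1a and P4ha1) and 1 lower (Slc16a1), against 2.62% of all genes higher and 5.62% in either direction. The groups did not overlap for 12 of 38 genes (31.6%), 9 higher and 3 lower in IL6_ConCM, against 34.1% of all genes (15.7% higher and 18.4% lower). The difference was above 0 for 24 of 38 genes (63.2%), against 46.9% of all genes, and this count was 31 without IL6_ConCM replicate 1 and 19 without IL6_ConCM replicate 2.

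Hif1a had log2 levels of 11.66 and 11.52 in IL6_ConCM, against 11.43 and 11.20 in ConCM, and the groups did not overlap. The difference was 0.27 ± 0.08 (SE, n = 2 each; 95% interval 0.10 to 0.44), or 1.20-fold (limma adjusted p = 0.485). It was 0.15 without ConCM replicate 2 and 0.38 without ConCM replicate 1, which was the nearer of the ConCM arrays to IL6_ConCM. The other Hif1a probe set differed by 0.20. Egln3 was at 11.63 and 11.58 in IL6_ConCM, against 11.57 and 11.44 in ConCM, a difference of 0.10. Egln2, a further prolyl hydroxylase, was at 8.01 and 7.94 in IL6_ConCM, against 7.92 and 7.90 in ConCM, and Epas1 at 6.45 and 6.65, against 6.39 and 6.47. Egln3 and Egln2 did not overlap between the groups, Epas1 did, and none of the 3 passed the test. The median of the 7 genes was 0.06.

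Slc16a1 was at 9.29 and 9.12 in IL6_ConCM, against 9.54 and 9.36 in ConCM, without overlap. The difference was -0.24 ± 0.09 (adjusted p = 0.730), beside the -0.23 of PlGFCM against the same ConCM arrays. Slc2a1 was at 11.34 and 11.43 in IL6_ConCM, against 11.22 and 11.30 in ConCM, a difference of 0.13 (95% interval -0.01 to 0.26; adjusted p = 0.920). Slc16a3, at 9.20 and 9.34 in IL6_ConCM, against 9.14 and 9.15 in ConCM, differed by 0.12, and Pfkp, the phosphofructokinase of platelets and proliferating cells, at 11.40 and 11.43, against 11.43 and 11.58, by -0.09. Slc2a1 and Slc16a3 lay higher and Pfkp lower in IL6_ConCM without overlap. Hk2 was at 9.44 and 9.46 in IL6_ConCM, against 9.51 and 9.35 in ConCM, and Ldha at 8.37 and 8.78, against 8.50 and 8.72. Both overlapped, and the median of the 19 genes was 0.0023.

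P4ha1 was at 10.20 and 10.29 in IL6_ConCM, against 10.05 and 10.05 in ConCM. It did not overlap between the groups and differed by 0.20 ± 0.07 (SE, n = 2 each; 95% interval 0.05 to 0.35; adjusted p = 0.695). Pdk3, a kinase of the same family as Pdk1, was at 8.75 and 8.69 in IL6_ConCM, against 8.66 and 8.60 in ConCM, again without overlap. Higd1a, a mitochondrial protein induced by hypoxia, was at 7.36 and 7.67 in IL6_ConCM, against 7.59 and 7.76 in ConCM, and Bnip3 at 8.83 and 9.09, against 8.71 and 8.94. Pdk1 was at 9.28 and 9.55 in IL6_ConCM, against 9.33 and 9.54 in ConCM. These 3 genes overlapped between the groups, and the median of the 12 other HIF targets was 0.03.

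Between PlGFCM and IL6_ConCM, the comparison that sets the media with PlGF and with IL-6 against each other, none of the 38 genes passed the test, where 0.0316% of all genes did, and 0 of 38 had an unadjusted p under 0.05, against 4.37% of all genes. The groups did not overlap for 4 of 38 genes (10.5%), against 30.1% of all genes (15.2% higher and 14.9% lower): P4ha1 was higher in PlGFCM, and Pgk1, Pfkfb4 and Pgam1 were lower. The difference was above 0 for 24 of 38 genes (63.2%), against 49.1% of all genes, and this count was 8 without PlGFCM replicate 1 and 30 without PlGFCM replicate 2. P4ha1 was at 10.43 and 10.33 in PlGFCM, against 10.20 and 10.29 in IL6_ConCM, a difference of 0.14 (95% interval -0.01 to 0.29; limma adjusted p = 0.998) that was 0.09 without PlGFCM replicate 1 and 0.19 without PlGFCM replicate 2. Pgk1 was at 12.26 and 12.26 in PlGFCM, against 12.29 and 12.38 in IL6_ConCM, and Pfkfb4, which sets the level of a phosphofructokinase activator, at 6.25 and 6.34, against 6.44 and 6.45. For Pgk1 the difference was -0.07 and for Pfkfb4 -0.15, and without PlGFCM replicate 2 they were -0.07 and -0.20.

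The other genes with the smallest p in this comparison overlapped between the groups. Pfkm, the muscle phosphofructokinase, was at 6.64 and 6.38 in PlGFCM, against 6.61 and 6.81 in IL6_ConCM, and Pfkfb3, the inducible counterpart of Pfkfb4, at 8.72 and 8.44, against 8.36 and 8.53. Higd1a was at 7.99 and 7.41 in PlGFCM, against 7.36 and 7.67 in IL6_ConCM, Ndrg1, a stress-induced gene, at 10.16 and 9.89, against 9.67 and 10.09, and Ero1a at 11.09 and 10.94, against 10.90 and 11.01. In these last 3 genes the spread within each medium was as wide as the gap between the media or wider. Of the HIF genes, Egln1 was at 10.18 and 10.02 in PlGFCM, against 10.04 and 10.07 in IL6_ConCM, and Egln2 at 8.03 and 7.83, against 8.01 and 7.94. Both overlapped, with differences of 0.04 and -0.04, as did Egln3 (0.05) and Hif1a (-0.06). Role medians were 0.01 for the HIF subunits and oxygen sensors, 0.0031 for the glycolytic genes and 0.06 for the other HIF targets. In that order they were -0.04, -0.04 and -0.05 without PlGFCM replicate 1, and 0.06, 0.08 and 0.16 without PlGFCM replicate 2, so the arrays of PlGFCM set their sign.

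A p above the threshold does not show that the media act alike, and the intervals say how large a difference the arrays allow. In PlGFCM against ConCM the 95% interval lay within 1.5-fold in either direction for 37 of 38 genes (97.4%), against 86.4% of all genes, Ddit4, a stress-induced inhibitor of mTORC1 signalling, being the exception with -0.25 to 0.60. In IL6_ConCM against ConCM and in PlGFCM against IL6_ConCM this held for 38 of 38, against 88.5% and 88.7% of all genes. These intervals are limited by the number of arrays. In PlGFCM against ConCM the median SE was 0.09 for the 38 genes and 0.13 over all genes. All 38 had a mean at or above the median of all probe sets, as did 11751 of the 22180 genes. The part of this level in the narrower intervals was not tested.

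**Figure D2:**
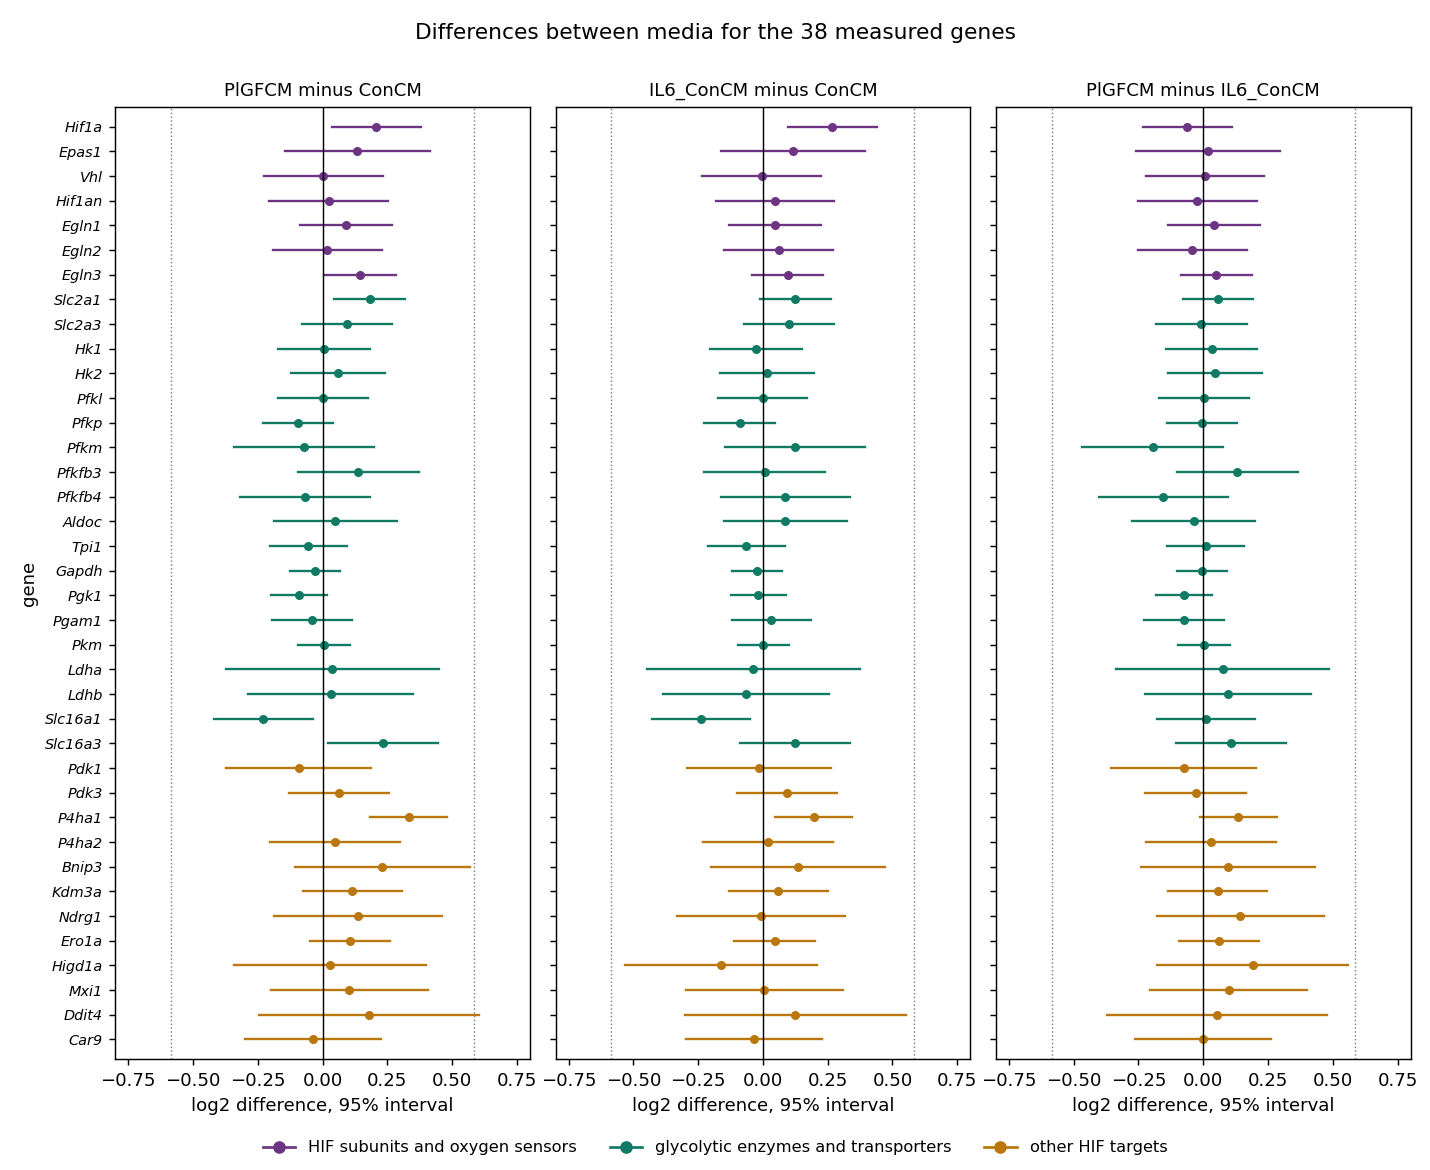
Log2 difference of each of the 38 genes in the 3 comparisons; points are fitted differences, bars are 95% limma intervals, colours are the 3 roles and dotted lines mark 1.5-fold. No gene passed the adjusted threshold, and the interval of Ddit4 in PlGFCM against ConCM (-0.25 to 0.60) is the only one to cross a dotted line.

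The replicates of a medium differed more than the media did for most of these genes. The mean size of the 3 replicate differences was above the largest difference between group means for 27 of 38 genes (71.1%), against 46.3% of all genes, and for 11 of the 12 other HIF targets. The replicate differences also ran together over genes. Replicate 1 was above replicate 2 for 32 of 38 genes in PlGFCM (84.2%, against 51.3% of all genes), for 10 of 38 in IL6_ConCM (26.3%, against 48.7%) and for 16 of 38 in ConCM (42.1%, against 55.0%). This pattern was noticed in the values themselves, so it is given as a description with no test. The labels do not say whether a replicate number marks the same culture, animal or day in different media. The opposite order in PlGFCM therefore depends on how its 2 replicates were numbered, and whether these numbers were exchanged cannot be told. PlGFCM replicate 2 is also the array with Xist at 8.38, and the part of that difference between the samples in this order was not tested.

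Ddit4 was at 8.55 and 7.86 in PlGFCM, at 8.01 and 8.30 in IL6_ConCM and at 7.85 and 8.21 in ConCM. Replicate 1 was thus the higher PlGFCM array and the lower array of each other medium. Mxi1, a Myc antagonist, was at 8.66 and 8.28 in PlGFCM, at 8.27 and 8.47 in IL6_ConCM and at 8.20 and 8.52 in ConCM. Ndrg1, at 9.70 and 10.08 in ConCM, and Kdm3a, at 9.24 and 9.42 in IL6_ConCM, had the same order, with their other values as given above. So did Bnip3, Higd1a, Pdk1, Ero1a, Ldha, Slc2a1 and Slc16a3. In all, 19 of 38 genes (50%) had it, against 13.2% of all genes: 8 of 12 other HIF targets, 8 of 19 glycolytic genes and 3 of 7 HIF subunits and oxygen sensors. Hif1a did not, nor did P4ha1. Of the 35 genes with a promoter window, the first listed window held a core in 13 of the 16 that had this order and in 16 of the other 19.

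PlGFCM replicate 1 was the highest of the 6 arrays for 23 of 38 genes (60.5%), against 19.9% of all genes, and for 9 of the 12 other HIF targets. Relative to each gene's mean over the 6 arrays, the other HIF targets averaged 0.19 and -0.08 on the PlGFCM arrays, -0.10 and 0.08 on the IL6_ConCM arrays and -0.12 and 0.03 on the ConCM arrays. PlGFCM replicate 1 stood highest, and both IL6_ConCM replicate 1 and ConCM replicate 1 stood lowest. The glycolytic genes had the same signs at a smaller size, with 0.07 and -0.07 in PlGFCM, -0.02 and 0.02 in IL6_ConCM and -0.03 and 0.02 in ConCM. The HIF subunits and oxygen sensors did not, with 0.08 and -0.02 in PlGFCM, 0.03 and 0.03 in IL6_ConCM and -0.04 and -0.08 in ConCM.

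**Figure D3:**
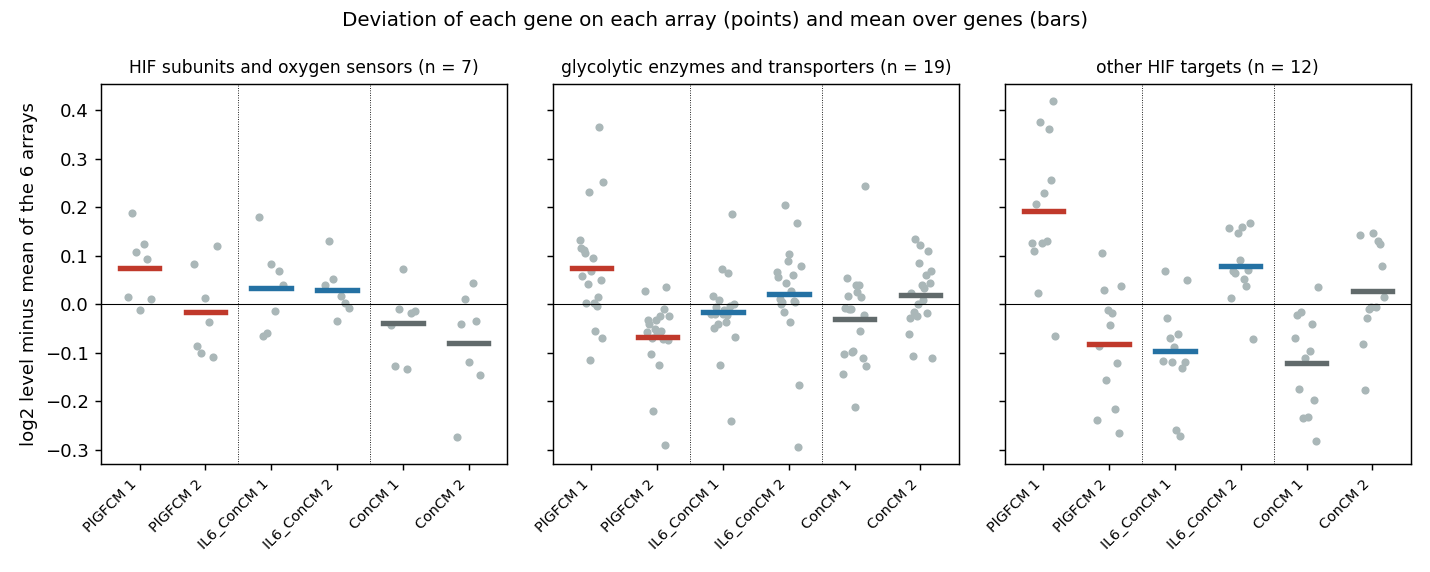
Log2 level of each gene minus its own mean over the 6 arrays, by array and role; points are genes and bars are the mean of the role on that array. The other HIF targets average 0.19 on PlGFCM replicate 1 and between -0.12 and 0.08 on the other 5 arrays.

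Over the 38 genes, which share these arrays and are not independent, Pearson's r of the replicate differences was -0.72 between PlGFCM and IL6_ConCM, -0.61 between PlGFCM and ConCM and 0.62 between IL6_ConCM and ConCM. Over all 22180 genes it was 0.03, -0.04 and 0.11. The other probe sets gave Pdk1 replicate differences of 0.65, -0.23 and -0.55 in PlGFCM, IL6_ConCM and ConCM, beside 0.36, -0.27 and -0.21 for the probe set used. For Ndrg1 they were 0.32, -0.17 and -0.49, beside 0.27, -0.42 and -0.38. The other probe set of Mxi1 had replicate 2 higher in every medium (-0.06, -0.09 and -0.26), so it lacked the order in PlGFCM, and so did that of Slc2a1 (-0.08, -0.03 and -0.10). That of Ero1a had the order, at 0.05, -0.04 and -0.35. Between PlGFCM and ConCM the other probe set of Mxi1 differed by 0.35 without overlap, against 0.10 for the probe set used. It was not tested on its own. After quantile normalization, a scaling looked at once the pattern had been seen, 21 of 38 genes had the order (14.2% of all genes), and after subtraction of array medians 16 of 38 (11.7% of all genes).

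Among the marker lists, the mean of the dendritic cell list had the same signs, at 5.70 and 5.61 in PlGFCM, 5.51 and 5.67 in IL6_ConCM and 5.69 and 5.73 in ConCM. Of its genes, Flt3 had the order (7.20 and 6.75 in PlGFCM, 6.36 and 7.02 in IL6_ConCM, 6.44 and 6.92 in ConCM), and Itgax, Siglech and Xcr1 did not. The mean of the CD8 T and NK cell list ran the opposite way, at 5.51 and 5.75 in PlGFCM, 5.77 and 5.66 in IL6_ConCM and 5.78 and 5.69 in ConCM. Of its genes, Cd8a ran this way, at 5.67 and 6.06 in PlGFCM, 6.07 and 5.47 in IL6_ConCM and 6.26 and 5.61 in ConCM. Cd8b1 did so too, and Ncr1, Klrb1c and Klrd1 did not. The part of other cell types in the replicate differences was not tested. The mean of the myeloid list was highest in PlGFCM (6.02 and 5.86), against 5.79 and 5.76 in IL6_ConCM and 5.68 and 5.75 in ConCM. Of its genes, Cd14 was at 6.95 and 6.91 in PlGFCM, at 6.01 and 6.45 in IL6_ConCM and at 6.25 and 6.26 in ConCM. Adgre1 was also higher on both PlGFCM arrays than on all others, and Lyz2, Csf1r, Itgam and Fcgr3 were not. The part of myeloid cells in the differences between media was not tested.

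**Figure D4:**
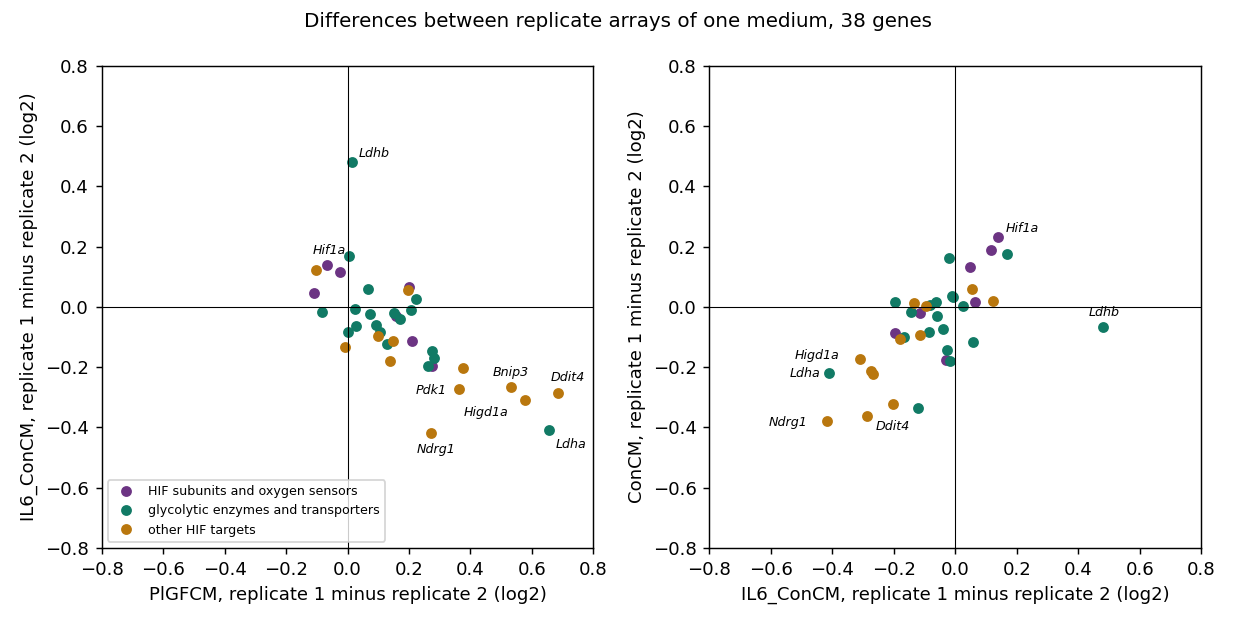
Log2 difference between replicate 1 and replicate 2 of a medium for the 38 genes, coloured by role: PlGFCM against IL6_ConCM on the left and IL6_ConCM against ConCM on the right. Genes with replicate 1 higher in PlGFCM mostly have it lower in IL6_ConCM (r = -0.72), while IL6_ConCM and ConCM run the same way (r = 0.62).

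Further genes of the pathways, from 6 lists of genes outside the 43, were read in the same fit, and none of them passed the test in any comparison. Further HIF targets were the list with the highest median in PlGFCM against ConCM, 0.13 over 23 of 26 measured. Of these, 18 were above 0 (78.3%, against 46.4% of all genes). Their median was 0.02 in IL6_ConCM against ConCM and 0.08 in PlGFCM against IL6_ConCM. Hilpda, a lipid droplet protein induced by hypoxia, was at 8.98 and 8.87 in PlGFCM, at 8.42 and 8.59 in IL6_ConCM and at 8.54 and 8.65 in ConCM. Both PlGFCM arrays were above all others, with a difference of 0.33 from ConCM (adjusted p = 0.231) and of 0.42 from IL6_ConCM (adjusted p = 0.275), and without PlGFCM replicate 2 they were 0.38 and 0.47. Hmox1, the haem-degrading oxygenase, differed by 0.27 between PlGFCM and ConCM (adjusted p = 0.308), or by 0.17 without PlGFCM replicate 1 and 0.37 without PlGFCM replicate 2. Hmox1 was higher in IL6_ConCM too, at 9.67 and 9.76, against 9.46 and 9.55 in ConCM. Of these 23 genes, 9 had the order of replicates described above.

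The pentose phosphate pathway, which branches from glycolysis, had a negative difference in PlGFCM against ConCM for 5 of 5 measured genes (of 7 listed), with a median of -0.07. Over all genes the difference was above 0 for 46.4%. Rpe, Pgls, Pgd and Taldo1 differed by only -0.08 to -0.03, each with an unadjusted limma p above 0.05. Rpia, the ribose 5-phosphate isomerase, was at 7.08 and 7.11 in PlGFCM, at 7.32 and 7.28 in IL6_ConCM and at 7.55 and 7.53 in ConCM. The 3 media did not overlap, and the difference of PlGFCM from ConCM was -0.44 ± 0.09 (SE, n = 2 each; limma adjusted p = 0.0850), and it was -0.45 without PlGFCM replicate 2. Of the genes for pyruvate entry into mitochondria (10 of 11 measured, median -0.10), Pdha1, a subunit of pyruvate dehydrogenase, differed by -0.23 (adjusted p = 0.397), and Pdk2, a kinase that inhibits it, differed by 0.25 (adjusted p = 0.503). Neither passed the test, and without PlGFCM replicate 2 the differences were -0.28 and 0.26. In IL6_ConCM, Pdha1 was likewise lower (8.78 and 8.68, against 8.89 and 8.90 in ConCM). Pdk2 was likewise higher there (6.66 and 6.73, against 6.62 and 6.54 in ConCM).

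Further glycolysis genes (14 of 17 measured) had a median of 0.04 in PlGFCM against ConCM. Eno3, the muscle enolase, was at 8.27 and 8.25 in PlGFCM, at 8.25 and 8.31 in IL6_ConCM and at 8.54 and 8.53 in ConCM, and Eno2, the neuronal enolase, at 6.84 and 6.62 in PlGFCM, at 6.39 and 6.49 in IL6_ConCM and at 6.54 and 6.29 in ConCM. Eno3 differed from ConCM by -0.27 in PlGFCM and by -0.25 in IL6_ConCM (adjusted p = 0.280 and 0.613), and Eno2 was highest on the PlGFCM arrays, by 0.32 from ConCM (adjusted p = 0.492). Without PlGFCM replicate 2 the differences of PlGFCM from ConCM were -0.26 for Eno3 and 0.43 for Eno2, and without PlGFCM replicate 1 that of Eno2 was 0.21. Of the further HIF pathway genes (10 of 11 measured, median -0.03), Cul2, the scaffold of the Vhl ubiquitin ligase, differed by -0.20 (adjusted p = 0.445) and Ep300, a coactivator of HIF, by 0.16 (adjusted p = 0.572), or by -0.19 and 0.17 without PlGFCM replicate 2. In IL6_ConCM, Cul2 was likewise lower (9.21 and 9.09, against 9.28 and 9.29 in ConCM). Ep300 was likewise higher there (10.09 and 10.09, against 10.07 and 9.87 in ConCM). Of the growth regulators upstream of T cell glycolysis (12 of 12 measured, median -0.04), Irf4 was at 11.47 and 11.65 in PlGFCM, at 11.33 and 11.25 in IL6_ConCM and at 11.42 and 11.39 in ConCM. It was highest in PlGFCM, by 0.27 from IL6_ConCM (adjusted p = 0.468), or by 0.18 without PlGFCM replicate 2. Myc, the factor that drives early glycolysis in stimulated T cells, differed by -0.18 in PlGFCM and by -0.17 in IL6_ConCM from ConCM (adjusted p = 0.531 and 0.885), and the first was -0.24 without PlGFCM replicate 2.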

How the data were processed

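Total RNA of 6 samples was labelled for Affymetrix whole-transcript arrays. The deposited table holds log2 levels of 41345 probe sets, which the authors made in Transcriptome Analysis Console according to the submitters' processing notes. The sources used here do not give its version, background correction, normalization or genome build. That the scale is log2 follows from the range of the values, and no further normalization was applied. The platform annotation gave 23521 probe sets 1 gene symbol, 1814 several and 16010 none, and those with 1 symbol gave 22180 genes, each by its brightest probe set. Differences were tested with limma 3.58.1 in R 4.3.3 (lmFit and eBayes with an intensity trend, all 6 arrays, 3 residual degrees of freedom, median prior 8.14), with Benjamini-Hochberg adjustment over all genes, a threshold of 0.05 and moderated 95% intervals. The fit was also run on simulated data with independent values drawn from its own variance model. Such data hold no shifts shared between genes of an array, so nothing follows from that run for the replicate pattern. With 2 arrays per group, arrays give no read depth and their number limits the precision.

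The members, the lists of further genes and the markers were chosen with earlier results of these data known, so none is independent evidence. Values in every array are given for the 4 members with the smallest p in each role and comparison and for Hif1a, Slc2a1, Hk2, Ldha and Pdk1, and up to 2 genes of each other list are named by smallest p. The genes of the replicate pattern, Pgam1 and the intervals of Gapdh, Pkm and Ddit4 were added after their values were seen. Medians over a role carry no test. The alternatives comprised quantile normalization, array medians subtracted, a filter on low levels, the mean of all probe sets, 2 other variance priors, the compared groups alone, the replicate number as a block and each array left out.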

Additional observations from a re-analysis of the deposited data

How the results depend on the processing

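No member passed the threshold in any comparison under any of the 14 alternatives, except P4ha1 in PlGFCM against ConCM when genes below the median of all probe sets were left out (1 member called, against 0), where fewer genes are adjusted for. Of 1596 values (114 member differences, 14 alternatives), 135 from 79 differences changed sign, none of them past the threshold. Counts over all genes moved more. In PlGFCM against ConCM, 96 genes passed, 174 with that filter, 6 without the intensity trend, 62 with the replicate block and 12 to 107 with an array left out, the lowest without PlGFCM replicate 2. In IL6_ConCM against ConCM, 25 passed, 53 with the filter, 1 without the trend, 12 with the compared groups alone, 16 with the replicate block and 2 to 41 with an array left out, the lowest without ConCM replicate 2. In PlGFCM against IL6_ConCM, 7 passed, 0 without the trend and 0 to 5 with an array left out. The cause was not tested. With an array left out, the median of the HIF subunits and oxygen sensors in PlGFCM against ConCM ran from 0.0095 to 0.1195 (0.09 with all arrays), and that of the glycolytic genes in PlGFCM against IL6_ConCM from -0.0411 to 0.0779. The median of the other HIF targets ran from -0.02 to 0.23 in PlGFCM against ConCM, from -0.02 to 0.11 in IL6_ConCM against ConCM and from -0.05 to 0.17 in PlGFCM against IL6_ConCM, so its sign rests on single arrays. After quantile normalization 24, 23 and 22 of 38 genes were above 0 in the 3 comparisons, and after subtraction of array medians 28, 23 and 28. Same-numbered replicates did not deviate together over all genes (r = -0.04 for PlGFCM with ConCM, 0.11 for IL6_ConCM with ConCM and 0.03 for PlGFCM with IL6_ConCM), short of what would pair the samples by number, although over the 38 genes r was -0.61, 0.62 and -0.72; no other numbering was tried. With 2 arrays per group, no array could be tested as an outlier.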
